A study of Rattus norvegicus with 11 samples.

Results

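The transcripts of 4 genes that are widely used as references in expression assays, Gapdh (ENSRNOG00000018630), Actb (ENSRNOG00000034254), Tbp (ENSRNOG00000001489) and Ywhaz (ENSRNOG00000008195), were followed across the estrous cycle and between the sexes in the rat medial prefrontal cortex (mPFC). They were chosen as common reference genes, by their Ensembl identifiers and not by their measured values, and are 4 of the 15607 genes in the table of DESeq2-normalized counts. All 4 were present and none was lost to a filter on low values. The animals were Sprague-Dawley rats aged 2 to 3 months, housed in pairs, with 4 females in diestrus, 3 females in proestrus and 4 males. Diestrus is the low-hormone stage and its females were killed early on the first day of that stage, whereas females in proestrus, the high-hormone stage, were killed early in the afternoon, so that stage and hour of collection cannot be told apart. The males were killed on the same days as the females. The authors had left out 1 further proestrus library as an outlier, so the proestrus spreads and overlaps are those of the libraries kept. Each sample was the RNA of mPFC tissue punches from 1 animal, so that cell types were mixed.

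A reference gene, or housekeeping gene, is one whose transcript is taken to stay constant between the samples of a study, and other transcripts or proteins are then expressed relative to it. A shift in the reference passes in full, with opposite sign, to every gene divided by it. Gapdh encodes a glycolytic enzyme, Actb encodes a cytoplasmic actin of the cytoskeleton, Tbp encodes the TATA-binding protein that helps to place RNA polymerase at promoters, and Ywhaz encodes a 14-3-3 adaptor protein that binds phosphorylated partners. In the same study, real-time PCR was referred to Hprt1 and immunoblots to actin.

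The core promoters of Gapdh and Tbp are shown because these genes lie at the extremes of the spread described further on, Gapdh with the widest and Tbp with the narrowest under size factors in all 11 samples. Both are RefSeq sequences of the GRCr8 rat assembly, which is not the build of the deposited counts, and each gives the 250 bases before the transcription start, 5′ to 3′. The Gapdh window is chr4:159652468-159652717 on the minus strand, and the Tbp window is chr1:65136458-65136707 on the plus strand. Capitals mark TATAAA in Gapdh and GGGCGG, the GC box, in Tbp. No promoter of Actb or Ywhaz is shown.
Gapdh: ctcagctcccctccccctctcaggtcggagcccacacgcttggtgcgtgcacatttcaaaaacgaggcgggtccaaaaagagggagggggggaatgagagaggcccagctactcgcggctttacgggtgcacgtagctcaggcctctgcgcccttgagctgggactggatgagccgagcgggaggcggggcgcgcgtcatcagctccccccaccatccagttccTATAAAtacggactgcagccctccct
Tbp: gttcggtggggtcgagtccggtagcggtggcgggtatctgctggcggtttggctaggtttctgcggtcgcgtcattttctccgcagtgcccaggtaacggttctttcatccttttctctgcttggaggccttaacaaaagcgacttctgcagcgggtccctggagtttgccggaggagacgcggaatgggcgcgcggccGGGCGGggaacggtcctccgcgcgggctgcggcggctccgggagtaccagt
The TATAAA of Gapdh lies at positions -26 to -21 from the start, and the GGGCGG of Tbp at positions -51 to -46. Of 33469 RefSeq promoter windows of this length, 12.9% held TATAAA and 30.5% held GGGCGG on either strand. Neither window held CCAAT or a CArG box, the motif of serum response factor, which were in 34.0% and 1.5% of all windows. The GC content was 63.6% for Gapdh and 64.4% for Tbp, against a median of 51.2% over all windows. These matches describe the letters of the windows and were not tested as binding sites.

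Reads on genes numbered 17072270 to 24589880 in the diestrus libraries, 16701398 to 19619281 in proestrus and 15851470 to 23333853 in males. The 4 reference genes together took 0.571% to 0.623% of these reads. Gapdh was represented by 31933 to 52325 reads per library, Actb by 25902 to 42473 and Ywhaz by 33621 to 51842, but Tbp by only 226 to 369. Counting error alone gives a coefficient of variation (CV, the SD as a percentage of the mean) of 0.492% for Gapdh, 0.561% for Actb, 0.496% for Ywhaz and 6.0% for Tbp. Levels are given as normalized counts, reads divided by the size factor of their library, and were not compared between genes because transcript lengths were not used. Some libraries stood apart from their group over all genes. Between replicates of a group, the chi-square of the read counts per degree of freedom was 5.29 for diestrus replicates 2 and 3 and 4.94 for replicates 4 and 5, but 13.7 to 25.6 between these pairs, and it was 14.2 to 27.3 between male replicate 3 and the other males, against 7.39 to 11.0 among those. Over all genes, the deviations of male replicate 3 from its group mean correlated at 0.50 with those of diestrus replicate 2, 0.59 with replicate 3 and -0.67 with replicate 5. The same 3 libraries, diestrus replicates 2 and 3 and male replicate 3, were the highest in Gapdh. The stage differences of Gapdh and Ywhaz are therefore also given without the 2 diestrus libraries, and the spreads without all 3. The mPFC label was not checked against marker genes, since the identifiers of other genes were not paired with symbols here.

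Gapdh had the largest difference between the cycle stages of the 4 genes, short of the threshold in the main test. Its normalized counts in diestrus were 51224, 50017, 41443 and 40899 in replicates 2, 3, 4 and 5, with a mean of 45896 ± 5483 (SD, n = 4). In proestrus they were 35407, 37863 and 38437 in replicates 1, 3 and 5, with a mean of 37236 ± 1609 (n = 3). All 3 proestrus samples lay below all 4 diestrus samples, and the diestrus group was itself split, with replicates 2 and 3 high and replicates 4 and 5 low. In males, replicates 2, 3, 4 and 5 had 42198, 45899, 39366 and 39300 normalized counts, with a mean of 41691 ± 3114 (n = 4). The males lay above all proestrus samples and overlapped diestrus.

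The proestrus mean of Gapdh was 0.811 times the diestrus mean. In the limma fit over all genes, the log2 difference of proestrus from diestrus was -0.29 ± 0.09 (SE, 95% confidence interval -0.49 to -0.09, n = 3 and 4), with an unadjusted p of 0.00699 and an adjusted p of 0.0995, which did not pass the false discovery rate (FDR) of 0.05. DESeq2 run on the recovered reads gave a log2 difference of -0.30 with an adjusted p of 0.0406, which passed, and edgeR gave -0.30 with 0.0967, which did not. Without both diestrus replicates 2 and 3, which were chosen after their values were seen and are the 2 highest of all samples in Gapdh, so that a smaller difference had to follow, it was -0.15, with an adjusted p of 0.760 in limma. The share of reads on the 20 most abundant genes, which do not include Gapdh, was 13.4% to 13.9% in diestrus, 11.3%, 11.8% and 13.4% in proestrus replicates 1, 3 and 5, and 12.0% to 13.4% in males, and its part in the Gapdh difference was not tested. As these are bulk samples, fewer cells of a type and less RNA per cell cannot be told apart.

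**Figure D1:**
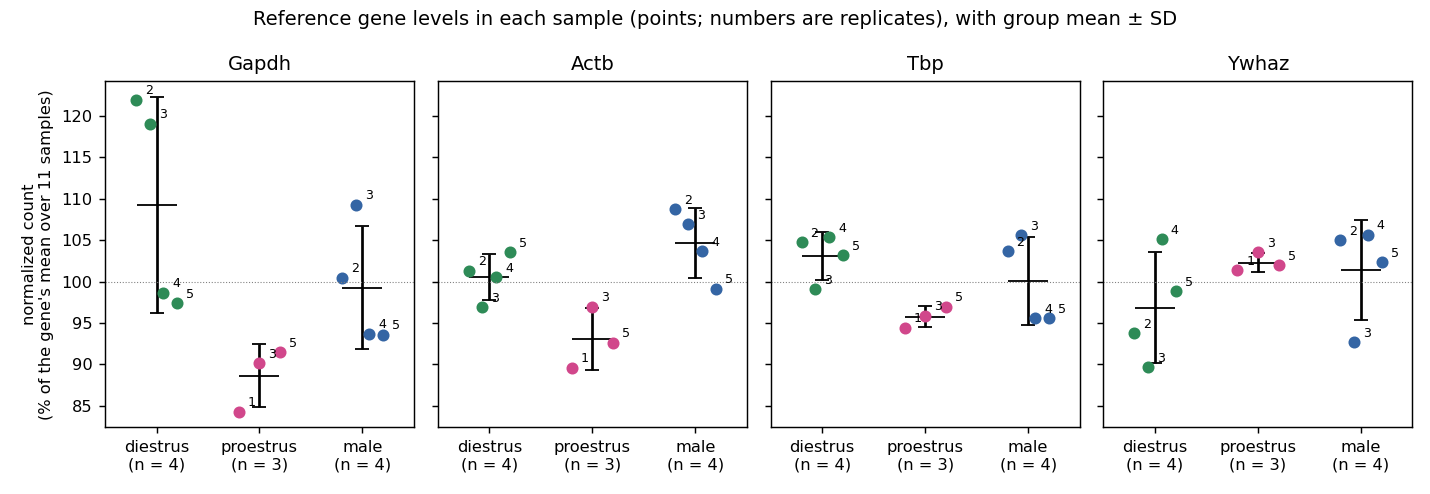
Normalized count of each reference gene in each of the 11 samples, as a percentage of that gene's mean over all samples, by group. Points are samples labelled with their replicate numbers, and the marks with bars are group means ± SD. The 3 proestrus samples of Gapdh lie below all diestrus and male samples, and the Ywhaz samples of proestrus lie close together.

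Actb, the cytoskeletal reference, also had its lowest group mean in proestrus, by a smaller margin from diestrus than Gapdh and a similar one from males. Diestrus replicates 2, 3, 4 and 5 had 32480, 31059, 32222 and 33198 normalized counts (mean 32240 ± 889, n = 4), and proestrus replicates 1, 3 and 5 had 28720, 31088 and 29686 (mean 29831 ± 1191, n = 3). Male replicates 2, 3, 4 and 5 had 34856, 34277, 33233 and 31778 (mean 33536 ± 1351, n = 4). Proestrus lay below all males, but proestrus replicate 3 lay just above diestrus replicate 3, so that the 2 stages overlapped. The log2 difference of proestrus from diestrus was -0.11 (limma, 95% confidence interval -0.25 to 0.02, adjusted p of 0.244), and that of proestrus from males was -0.17 (-0.30 to -0.04, unadjusted p of 0.0167, adjusted p of 0.388). Neither passed the FDR, and DESeq2 gave adjusted p-values of 0.160 and 0.134 for the same differences.

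Tbp, a general transcription factor, had the narrowest range over all 11 samples with size factors, and its reads per library were close to the median gene's, 244 to 362. Its normalized counts were 293, 277, 294 and 288 in diestrus (replicates 2, 3, 4 and 5, mean 288 ± 7.94, n = 4) and 264, 268 and 271 in proestrus (replicates 1, 3 and 5, mean 268 ± 3.6, n = 3). In males they were 290, 295, 267 and 267 (replicates 2, 3, 4 and 5, mean 280 ± 14.8, n = 4). Proestrus lay below all diestrus samples and overlapped the males, with proestrus replicate 1 below every male, and among the males replicates 2 and 3 were high and replicates 4 and 5 low. The log2 difference of proestrus from diestrus was -0.11 (limma, 95% confidence interval -0.29 to 0.08, adjusted p of 0.430) and did not pass. At 226 to 369 reads per library the spread of Tbp over all samples, a CV of 4.51%, was below the 6.0% that counting alone gives, so that differences of this size were not detectable at this depth.

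Ywhaz, the 14-3-3 reference, had a proestrus mean above its diestrus mean, unlike the other 3 genes. It had 38330, 36649, 42957 and 40404 normalized counts in diestrus (replicates 2, 3, 4 and 5, mean 39585 ± 2722, n = 4) and 41420, 42321 and 41676 in proestrus (replicates 1, 3 and 5, mean 41805 ± 464, n = 3). Males had 42920, 37868, 43172 and 41823 (replicates 2, 3, 4 and 5, mean 41446 ± 2456, n = 4). The proestrus samples lay within the range of both other groups. Diestrus replicates 2 and 3 and male replicate 3, the samples with the highest Gapdh of all 11, were the 3 lowest in Ywhaz. The log2 difference of proestrus from diestrus was 0.08 (limma, 95% confidence interval -0.07 to 0.24, adjusted p of 0.465) and did not pass. It was 0.045 without diestrus replicate 3 and 0.0049 without both diestrus replicates 2 and 3. Leaving out both was a choice made after seeing the data. They are among the 3 lowest samples in Ywhaz, so that a smaller difference had to follow. The sizes of these small differences depended on the scaling: with reads scaled by library total, the difference between the stages was -0.025 for Actb, -0.018 for Tbp and 0.17 for Ywhaz, none of which passed, and -0.21 for Gapdh (limma adjusted p of 0.113).

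None of the 4 genes passed the FDR in any of the 4 comparisons with limma, 0 of 16 differences. Among all genes, the share past it was 2.53% between proestrus and diestrus (395 genes), 0.0833% between proestrus and males (13 genes), 0.128% between diestrus and males (20 genes) and 0.135% between all females and males (21 genes). At an unadjusted p under 0.05 in limma, 1 of the 4 (Gapdh) stood between proestrus and diestrus, against 26.7% of all genes, and 1 of the 4 (Actb) between proestrus and males, against 11.3%. There was 0 of 4 between diestrus and males, against 9.62%, and 0 of 4 between females and males, against 4.83%. With edgeR 0 of 16 passed the FDR and 2 were under 0.05 unadjusted, 1 between the stages, against 26.7% of all genes, and 1 between proestrus and males, against 11.0%. The shares of all genes past the FDR in edgeR were 2.7%, 0.0833%, 0.141% and 0.147% in the same order of comparisons. With DESeq2 1 of 16 passed (Gapdh between the stages) and 3 were under 0.05 unadjusted, 2 between the stages, against 26.9% of all genes, and 1 between proestrus and males, against 10.6%. The shares of all genes past the FDR in DESeq2 were 6.89%, 0.756%, 0.75% and 0.493%. The proestrus and diestrus samples did not overlap for 2 of the 4 reference genes, Gapdh and Tbp, both lower in proestrus, against 26.6% of all genes, or 11.6% counting those lower in proestrus. Proestrus and males did not overlap for 2 of the 4, Gapdh and Actb, again both lower in proestrus, against 13.3% of all genes, or 5.61% lower in proestrus. Diestrus and males overlapped for each of the 4, as did females and males, and the shares of all genes without overlap were 3.84% and 1.06%. Comparisons that share a group share its samples, so these counts are not independent.

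The confidence intervals bound what could have been missed. Between diestrus and males, the log2 difference was 0.13 for Gapdh (-0.05 to 0.32), -0.06 for Actb (-0.18 to 0.07), 0.04 for Tbp (-0.13 to 0.22) and -0.07 for Ywhaz (-0.21 to 0.08). Between proestrus and males it was -0.16 for Gapdh (-0.36 to 0.04, and -0.11 without male replicate 3), -0.06 for Tbp (-0.25 to 0.13) and 0.01 for Ywhaz (-0.14 to 0.17). With both stages pooled, females differed from males by 0.01 for Gapdh (-0.21 to 0.23), -0.10 for Actb (-0.23 to 0.02), -0.00 for Tbp (-0.16 to 0.16) and -0.03 for Ywhaz (-0.17 to 0.10). The Gapdh mean over all 7 females, 42184 ± 6109, thus lay near the male mean while its 2 stages lay on either side of it.

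**Figure D2:**
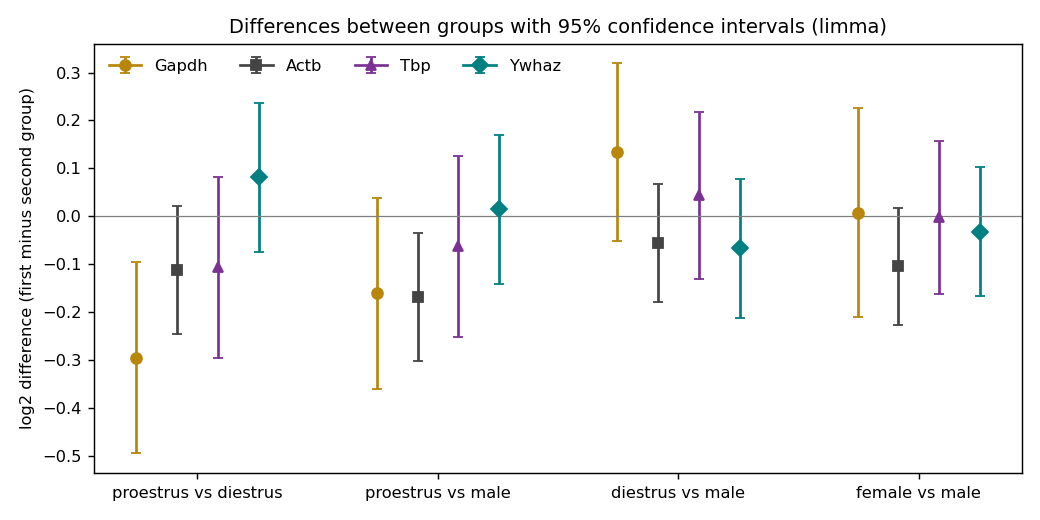
Log2 difference of each reference gene in the 4 comparisons, first group minus second, with 95% confidence intervals from limma. The interval for Gapdh between proestrus and diestrus, -0.49 to -0.09, and the interval for Actb between proestrus and males, -0.30 to -0.04, lie below 0.

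Over all 11 samples the CV was 12.0% for Gapdh, 5.79% for Actb, 5.54% for Ywhaz and 4.51% for Tbp. The highest sample exceeded the lowest 1.45-fold for Gapdh, 1.21-fold for Actb, 1.18-fold for Ywhaz and 1.12-fold for Tbp. Proestrus replicate 1 was the lowest of all samples in Gapdh, Actb and Tbp. Between group means the largest fold was 1.23 for Gapdh, 1.12 for Actb, 1.08 for Tbp and 1.06 for Ywhaz. Inside groups, the CV of Gapdh was 11.9% in diestrus, 4.32% in proestrus and 7.47% in males, the highest of the 4 genes in each group, and that of Ywhaz was 6.88%, 1.11% and 5.93%. For Actb it was 2.76%, 3.99% and 4.03%, and for Tbp 2.76%, 1.34% and 5.28%.

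On the log2 scale the SD over all samples was 0.17 for Gapdh, 0.084 for Actb, 0.082 for Ywhaz and 0.065 for Tbp, against a median of 0.21 over all genes. Of all genes, 35.4% had a smaller SD than Gapdh, 6.69% a smaller SD than Actb, 6.05% a smaller SD than Ywhaz and 2.36% a smaller SD than Tbp. Because spread falls as abundance rises, each gene was also set beside those with a mean within 2-fold of its own. Gapdh was then more variable than most: 60 of 84 such genes (71.4%) had a smaller SD. For Actb 29 of 119 (24.4%) did, for Ywhaz 17 of 84 (20.2%) and for Tbp 26 of 3943 (0.659%). These ranks are descriptions of the 11 libraries and carry no test. Without diestrus replicates 2 and 3 and male replicate 3, left out after the data were seen, the SD over the other 8 samples was 0.081 for Gapdh, 0.091 for Actb, 0.064 for Tbp and 0.032 for Ywhaz, so that Actb was then the widest and Ywhaz the narrowest. The order also depended on the scaling, since with library totals Ywhaz had the widest SD, 0.13, followed by Gapdh at 0.12, Actb at 0.083 and Tbp at 0.049.

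**Figure D3:**
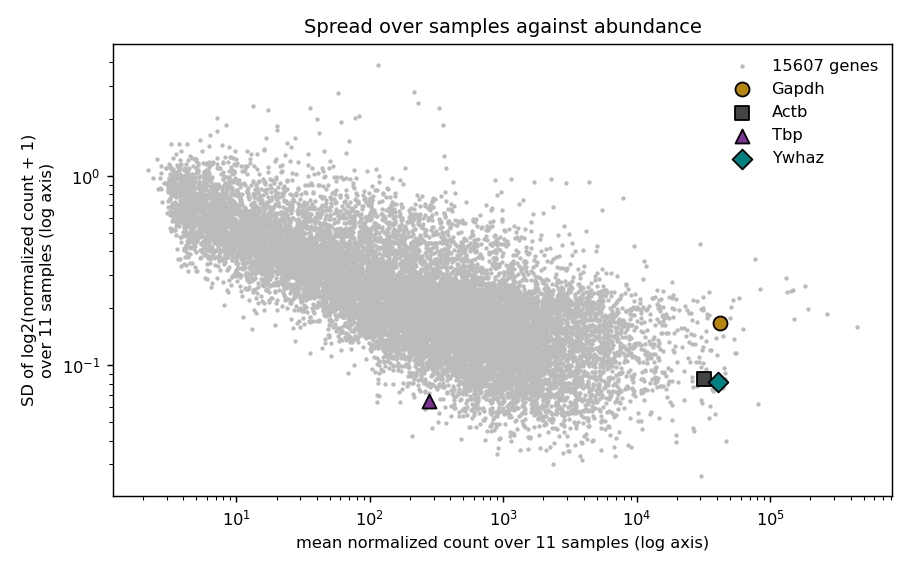
SD of log2(normalized count + 1) over the 11 samples against the mean normalized count, both on log axes, for all 15607 genes (grey) and the 4 reference genes. Gapdh, at an SD of 0.17, lies above most genes of its abundance, and Tbp, at 0.065, lies near the lower edge of its own.

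A ratio of 2 genes inside a library does not depend on how the library was scaled. Over all 11 samples, Actb/Tbp had the narrowest ratio, with an SD of 0.063 on the log2 scale over the 11 samples. Ratios of either to Ywhaz had an SD of 0.12, those of Gapdh had 0.13 to Tbp and 0.15 to Actb, and the ratio of Gapdh to Ywhaz had the widest, 0.24. Gapdh/Ywhaz was 1.34, 1.36, 0.965 and 1.01 in diestrus replicates 2, 3, 4 and 5, and 0.855, 0.895 and 0.922 in proestrus replicates 1, 3 and 5. In males it was 0.983, 1.21, 0.912 and 0.940 in replicates 2, 3, 4 and 5. The proestrus ratios lay below all those of diestrus, by a mean of -0.38 on the log2 scale, but overlapped the males. The highest ratio was 1.60 times the lowest. Diestrus replicates 2 and 3 had the highest ratios of all samples. Without both, the stage difference was -0.15 for Gapdh and 0.0049 for Ywhaz, and a smaller difference of the ratio had to follow from that choice. With all libraries, the stage differences of the other Gapdh ratios were smaller, -0.18 for Gapdh/Actb and -0.19 for Gapdh/Tbp. In both, the proestrus and diestrus samples overlapped.

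Actb/Ywhaz in proestrus, 0.693 to 0.735, lay below both diestrus, 0.750 to 0.847, and males, 0.760 to 0.905. Actb/Tbp was higher in males, 116.2 to 124.4, than in diestrus, 109.4 to 115.1, or proestrus, 108.8 to 116.0, with no overlap. Tbp/Ywhaz in proestrus lay below all diestrus samples, by -0.19 on the log2 scale, but overlapped the males. Gapdh/Tbp in proestrus, 134.2 to 141.8, lay below all males, 145.6 to 155.5, by -0.099 on the log2 scale. Of the 6 ratios, 3 did not overlap between proestrus and diestrus, 3 between proestrus and males and 1 between diestrus and males. The 6 ratios are built from 4 genes, so these counts are not independent, and no share over all pairs of genes was computed. Among single genes, 26.6%, 13.3% and 3.84% did not overlap in the same comparisons. The counting error of Tbp, a CV of 6.0% in a single library, enters each Tbp ratio. Its part in the group differences of these ratios was not tested. Without diestrus replicates 2 and 3 and male replicate 3, the SD over 8 samples was 0.085 for Actb/Ywhaz and 0.078 for Gapdh/Ywhaz. It was 0.072 for Actb/Tbp, 0.069 for Tbp/Ywhaz, 0.044 for Gapdh/Tbp and 0.043 for Gapdh/Actb, so that the order of the ratios turned. Averaged over a gene's 3 ratios in all 11 samples, the SD was 0.11 for Tbp and for Actb, 0.16 for Ywhaz and 0.17 for Gapdh. The geometric mean of the 4 genes had a CV of 4.00% and a fold of 1.14 between the highest and lowest sample. Without Gapdh, a choice made after its values were seen, the CV was 3.39% and the fold 1.11. The stage and sex differences of these ratios were tested in the fits scaled to 1 gene, described next.

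**Figure D4:**
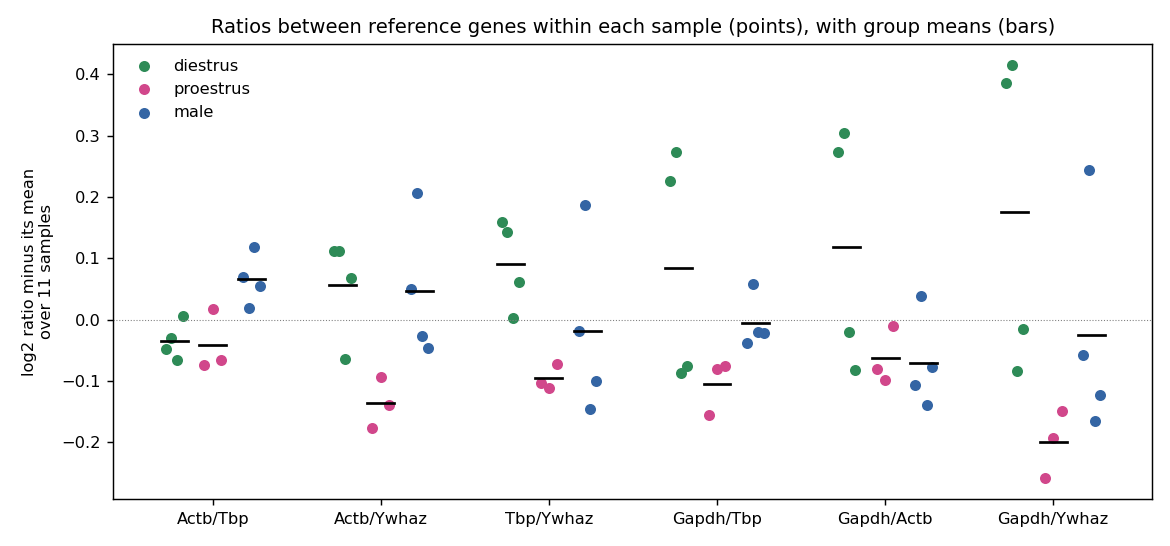
Log2 ratio of each pair of reference genes in each sample, minus the mean of that ratio over the 11 samples, by group. Points are samples and short bars are group means. Actb/Tbp has the narrowest spread (SD 0.063) and Gapdh/Ywhaz the widest (SD 0.24).

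To show what referring to a single gene does, every library was divided by each reference gene in turn and the limma fit was repeated. With the DESeq2 size factors, the median log2 difference between proestrus and diestrus over all genes was -0.01. It became 0.28 when libraries were scaled to Gapdh, 0.096 with Actb, 0.090 with Tbp and -0.094 with Ywhaz. The count of genes past the FDR went from 395, made up of 382 with more and 13 with less RNA in proestrus, to 740 with Gapdh (739 higher and 1 lower), 1342 with Actb (1336 and 6), 806 with Tbp (802 and 4) and 420 with Ywhaz (413 and 7). Of the 395 genes, 383 were also called with Gapdh, 387 with Actb, 385 with Tbp and 361 with Ywhaz. With the geometric mean of the 4 genes as reference, 959 genes passed, 954 of them higher, and 387 of the 395 were among them.

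The count with size factors was itself unsteady, since leaving out any 1 of the 11 libraries moved it from 395 by more than 1.5 times, over a range from 0 to 1774. It was 0 without proestrus replicate 1 or without proestrus replicate 3, where 2766 and 2960 genes had an unadjusted p under 0.05. The reference genes were also fitted after scaling to each other, which tests their ratios. The 6 ratios in 4 comparisons gave 24 distinct differences, each fitted with either gene as the reference, and 0 of the 24 passed the FDR in limma with either. Of all genes in the same fits, 2.69% to 8.6% passed between proestrus and diestrus and 0.0192% to 0.147% in the other comparisons, so that few calls among 24 would be found at those shares. An unadjusted p under 0.05 was reached with at least 1 of the references for 5 of the 24, and with both for 1, Gapdh/Ywhaz between proestrus and diestrus. Of the 5, 3 were between proestrus and diestrus, where 24.5% to 38.6% of all genes had an unadjusted p under 0.05 in the same fits. The others were Actb/Ywhaz between proestrus and males, where 10.6% to 26.9% of all genes did, and Actb/Tbp between females and males, where 3.71% to 10.7% did, while between diestrus and males, with none of the 5, the shares were 9.0% to 11.1%. The log2 difference of Ywhaz scaled to Gapdh was 0.38, with the lowest adjusted p of the 24, 0.0695, and that of Gapdh scaled to Ywhaz had an adjusted p of 0.163. Between proestrus and males, the median over all genes moved from 0.01 to 0.16 with Gapdh, 0.17 with Actb and 0.067 with Tbp, and was -0.0090 with Ywhaz. Between diestrus and males it was -0.12 with Gapdh, 0.065 with Actb, -0.034 with Tbp and 0.076 with Ywhaz. Each of these medians is, to a close approximation, the median with size factors minus the reference's own difference, which did not pass the FDR, so they restate those differences on the scale of all genes.

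**Figure D5:**
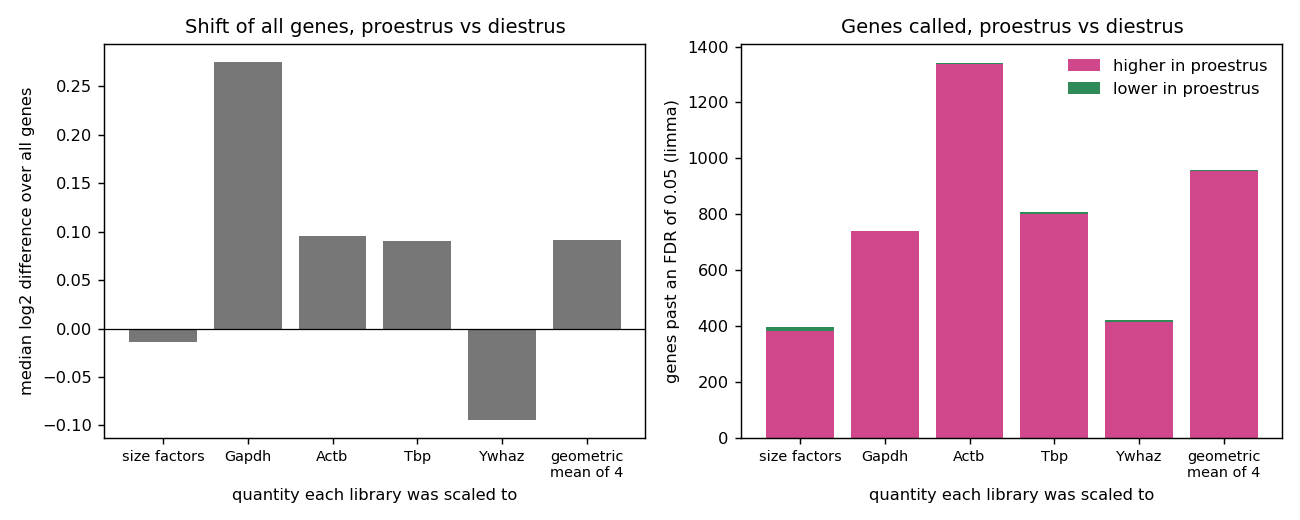
Proestrus against diestrus after scaling each library to the quantity on the horizontal axis. Left, the median log2 difference over all genes, which runs from -0.094 with Ywhaz to 0.28 with Gapdh. Right, the number of genes past an FDR of 0.05 in limma, higher or lower in proestrus, which runs from 395 with size factors to 1342 with Actb.

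The gene whose profile over the 11 samples was most like that of each reference gene was taken from the 11730 genes averaging 50 normalized counts or more, by Pearson r on the log2 scale, as a description with no test. For Gapdh it was ENSRNOG00000032134, with an r of 0.992 and levels of 5382 ± 532 in diestrus (n = 4), 4524 ± 159 in proestrus (n = 3) and 4893 ± 333 in males (n = 4). Its group means had the same order as those of Gapdh. For Ywhaz it was ENSRNOG00000027015 (r of 0.966), highest in male replicate 4 and lowest in diestrus replicate 3, as Ywhaz was. For Actb it was ENSRNOG00000012420 (r of 0.925), and for Tbp ENSRNOG00000018796 (r of 0.931), both lowest in proestrus replicate 1. Likeness in group means and in extreme samples follows from the choice by r. The points share their libraries and size factors.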

How the data were processed

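RNA-seq was made from mPFC punches of 11 rats. The authors prepared poly(A), unstranded libraries with spike-in RNA, trimmed reads with Trimmomatic 0.32, aligned them to Rnor_5.0 with TopHat2 2.0.11 and Bowtie2 2.1.0, assigned reads with a single alignment to Ensembl genes (HTSeq 0.6.1p1), removed weakly detected genes and left out 1 proestrus library, which was not analysed here. Unique mapping can drop reads shared with processed copies: RefSeq names 81 pseudogene entries for Gapdh, 10 for Actb, 2 for Ywhaz and 0 for Tbp, so their levels are uncertain to that extent. The deposited signal used here is a DESeq2-normalized count table of 15607 genes. The other deposited table, normalized with edgeR, holds 15724 genes and the same reads for the 4 genes. In the first, 100% of values were whole multiples of 1 step per library (tolerance 0.01 reads), so reads were recovered.

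Groups came from the sample labels, and the animals of a group are separate rats. Females were killed when both rats of a housed pair had reached the wanted stage, so replicates of a stage may be cage mates. The labels do not name the pairs, and the fits treated the animals as independent. The main test was limma 3.58.1 (R 4.3.3) on log2(normalized count + 1), pseudocount 1, with 3 groups in 1 fit for the stage comparisons and sex alone for females against males, a variance prior that follows abundance, and Benjamini-Hochberg adjustment over all 15607 genes at an FDR of 0.05. A fold on this scale understates the change of low genes. Counting intervals and errors cover counting alone. In simulated data of independent libraries, 200 genes averaging at least 50 normalized counts were changed by 1 log2 unit. Of these, limma recovered 95.5% for proestrus against diestrus, fitted over 15607 genes. The differences of the 4 reference genes were far smaller, and recovery at their size was not simulated. Alternatives were edgeR 4.0.16 and DESeq2 1.42.0 on the recovered reads, other scalings, pseudocounts and filters, the replicate number as a block, and leaving out libraries. The 4 genes are those of the reference set, named by their identifiers, and for each the most alike gene was named by the highest r. Lists of related genes were not matched, because the RefSeq table pairs 0 of its 47357 genes with Ensembl identifiers. The genes and tests were chosen with earlier results of these data known.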

Additional observations from a re-analysis of the deposited data

How the results depend on the processing

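For Gapdh between proestrus and diestrus, every alternative kept the lower proestrus level. It passed the FDR with DESeq2 (-0.30, adjusted p of 0.0406) and without diestrus replicate 5 (-0.35, limma adjusted p of 0.0369). The range was -0.35 to -0.24 on leaving out 1 library and the adjusted p ran from 0.0369 to 0.760 over all alternatives. Actb, Tbp and Ywhaz passed under none of the alternatives in any comparison, and Gapdh under none in the other comparisons. The sign of a small, uncalled difference turned in these cases, and the cause was not tested. Scaled by library totals, Tbp was at -0.0090 between diestrus and males, and Gapdh at -0.0077 between females and males. Without both diestrus replicates 2 and 3, a choice made after seeing the data, the difference from males was -0.015 for Gapdh and 0.0094 for Ywhaz in diestrus, and -0.10 for Gapdh and 0.012 for Ywhaz in females. On leaving out 1 library, Ywhaz between proestrus and males ranged from -0.028 (without male replicate 3) to 0.035, and between females and males Gapdh ranged from -0.041 to 0.055 and Tbp from -0.024 to 0.024. With library totals the SD of log2 over all samples was 0.12 for Gapdh and 0.13 for Ywhaz, so that Ywhaz and no longer Gapdh was the widest, and Tbp was still the narrowest. Without diestrus replicates 2 and 3 and male replicate 3, chosen after seeing the data, Actb was the widest (0.091) and Ywhaz the narrowest (0.032).

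The same replicate numbers occur in several groups but mark no shared animal or day in the labels. Deviations of the 8 same-numbered pairs correlated at 0.012 to 0.59 and those of the 32 other pairs at -0.67 to 0.58 (median -0.042). A pairing was to be accepted only if every same-numbered pair exceeded 0.1, and 6 of 8 did, so the block was kept as an alternative. The same number was the best match in another group in 11 of 16 cases, a hint from the data and not from the design. With the replicate number as a block, Tbp between females and males was at 0.019, and the counts of genes past the FDR were 517 for proestrus against diestrus, 3 for proestrus against males, 47 for diestrus against males and 18 for females against males. No call of a reference gene at the FDR changed under the block. Actb between proestrus and males was then at -0.13 (limma adjusted p of 0.442).

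Counts of genes past the FDR depended on the setting, for causes that were not tested. For proestrus against diestrus (395) they were 1076 with DESeq2, 817 with the 2 groups alone, 0 without both diestrus replicates 2 and 3 (1166 at an unadjusted p under 0.05 in limma), 740, 1342 and 806 scaled to Gapdh, Actb and Tbp, 959 scaled to the geometric mean, and 0 to 1774 on leaving out 1 library. For proestrus against males (13) they were 118 with DESeq2, 23 with the 2 groups alone, 23 without both diestrus replicates, 3, 7, 8 and 6 scaled to Gapdh, Actb, Tbp and Ywhaz, 6 with the geometric mean, and 2 to 26 on leaving out 1 library. For diestrus against males (20) they were 6 when genes averaging under 50 normalized counts were dropped, 117 with DESeq2, 4 without both diestrus replicates, 5 scaled to Ywhaz, and 1 to 88 on leaving out 1 library. For females against males (21) they were 77 with DESeq2, 38 without both diestrus replicates, 13 and 11 scaled to Gapdh and Actb, 13 with the geometric mean, and 1 to 24 on leaving out 1 library.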
